A study of Mus musculus with 36 samples.

Results

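The 12 libraries described here, of 36 in the study, hold RNA of extracellular vesicles (EVs) shed by mouse fetal neural stem cells (NSCs), 6 after moderate ethanol exposure (120 mg/dL) and 6 without ethanol. They were taken by their labels, as EV libraries of the 120 mg/dL dose and of control medium, and each treated library was paired with the control of its own culture. The labels give the cells as WT C57BL/6J NSCs of the GD 12.5 dorsal telencephalon, and the study's methods name the mice as C57BL/6J (Ai14), a line that carries a Cre-dependent fluorescent reporter. Cells were pooled by sex within 1 pregnancy and grown as neurospheres to passages 7 to 10. Female (F) and male (M) cultures of pregnancy sets 3, 4 and 5 gave the cultures 3F, 3M, 4F, 4M, 5F and 5M, so that n = 6 cultures per dose. The medium held 0 or 120 mg/dL (26 mM) ethanol for 5 days, with a change on day 3, and 4 flasks made 1 sample. EVs were concentrated from that medium by filtration and ultracentrifugation, so the preparation takes every particle that pelleted. The question was which genes and which RNA classes of the EV cargo differ at the moderate dose.

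EVs are membrane-bound particles that carry RNA and protein between cells. Some bud from the plasma membrane and others are released as exosomes when endosomal multivesicular bodies fuse with it, with tetraspanins, ESCRT subunits and Rab GTPases in their formation and RNA-binding proteins in the choice of their RNA. NSCs of the fetal ventricular zone renew themselves and give rise to the neurons of the cortex, and ethanol is known to disturb this process.

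EV libraries were shallow. The controls held 1124918 to 5472945 counts (median 3497192) and the 120 mg/dL libraries 959217 to 5509952 (median 4558084), against 26803735 to 55282322 in the matched cell libraries. Within cultures the ratio of the treated to the control total ran from 0.286 in 3M to 4.20 in 3F. The median rank correlation of a library with the other 11 lay between 0.833 and 0.916, lowest for the 4F control. Labels of sex held: the Y-linked transcripts Kdm5d, Uty, Ddx3y and Eif2s3y had 2 to 61 counts in each of the 6 male EV libraries and 0 to 7 in the 6 female ones. Transcripts of NSC identity were present in the control EVs, with median levels of 348 CPM (counts scaled to the library total) for Vim, 196 for Fabp7, 126 for Nes and 73.7 for Slc1a3, and 290, 187, 116 and 68.4 CPM at 120 mg/dL. Sox2, which lies inside the Sox2ot gene, was listed at 0 in these 12 libraries and in the 12 matched cell libraries. The summed level of 10 microglial genes was 2.68 to 16.2 CPM in control EVs and 2.09 to 7.62 CPM at 120 mg/dL, with P2ry12 at 0 in every one of the 12. That of 12 mesenchymal and blood genes was 2.38 to 12.5 and 2.18 to 8.34 CPM, with Hba-a1 at 0. P2ry12 and Hba-a1 were also at 0 in the 12 matched cell libraries, as Sox2 was. Whether these genes could be counted at all was not tested, so their zeros cannot show that such cells were absent.

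RNA classes were compared first. EV counts fell mostly on protein-coding genes, which held 58.4% to 78.0% of a control library (median 66.0%) and 47.9% to 72.5% at 120 mg/dL (median 65.7%). The share was higher with ethanol in 3 cultures and lower in 3. Long noncoding RNAs (lncRNAs) held 10.4% to 19.7% in controls (median 12.6%) and 9.89% to 24.7% at 120 mg/dL (median 15.2%), again higher in 3 of 6 cultures. Mitochondrial rRNA, the structural RNA of the mitochondrial ribosome, held a median of 10.9% and 11.1%. The groups overlapped in all 3 classes.

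The remaining classes were smaller. Features with no annotated class, whose counts fell nearly all on the locus LOC118568312, took a median of 5.60% of control counts and 5.64% at 120 mg/dL, higher in 4 of 6 cultures. Small nuclear RNAs, the RNA parts of the spliceosome, spanned 0.0966% to 1.36% in controls and 0.0789% to 1.79% at 120 mg/dL, so that libraries of 1 group differed by more than the doses did. Nuclear tRNA had a median share of 0.112% in controls and 0.0945% with ethanol, and mitochondrial mRNA one of 0.0658% and 0.0761%. Other noncoding RNAs, among them the RNase P and RNase MRP RNAs and the Y RNAs, had 0.792% and 0.618%. Each of these classes moved in both directions across cultures, as the plot of class shares shows.

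**Figure D1:**
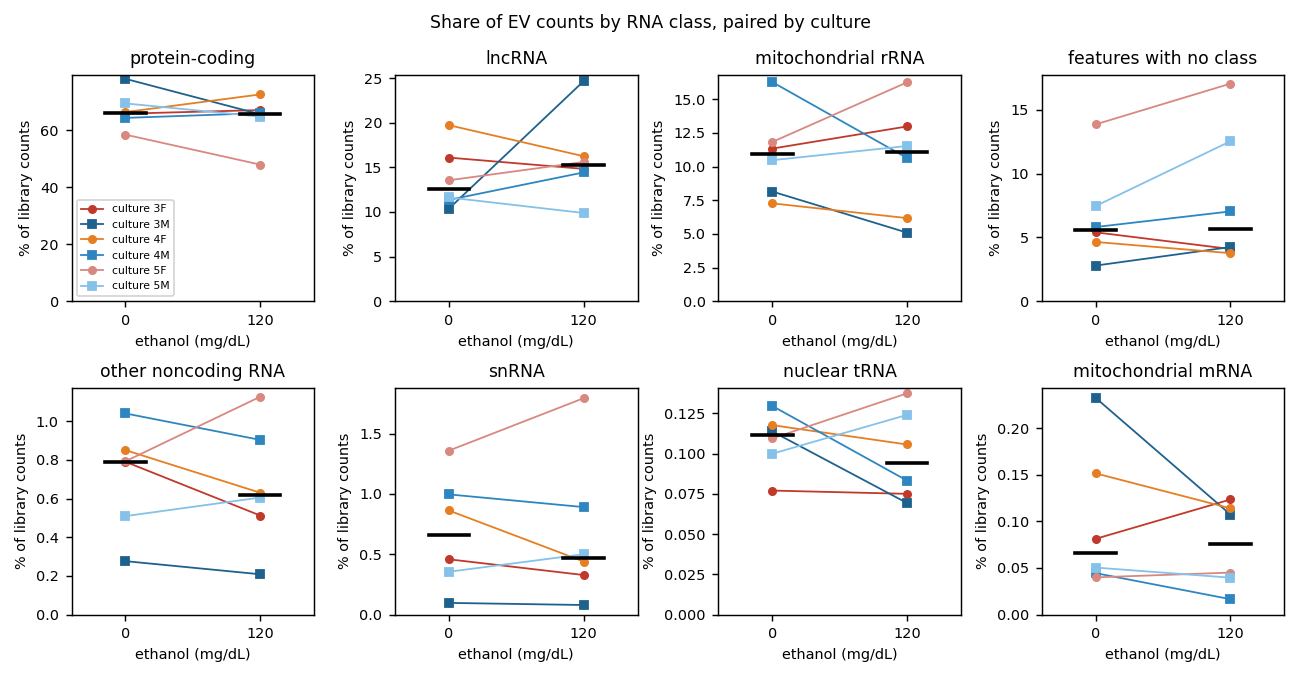
Share of the counts of each EV library (y axis, percent) that fell on each of 8 RNA classes at 0 and 120 mg/dL ethanol (x axis). Lines join the 2 libraries of a culture, circles are female and squares male cultures, and black bars are medians of 6. Lines cross in every panel, and the medians of protein-coding RNA are 66.0% and 65.7%.

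None of the 8 classes passed the exact two-sided sign-change test over the 6 cultures, whose smallest possible p is 0.03125. Adjusted over 8 classes, 1 class alone at that p would reach 0.25, and at least 6 classes would have to be at it for any to pass, so the test could hardly call a class. The lowest p was 0.281, for mitochondrial mRNA, whose share differed by -0.42 ± 0.76 on the log2 scale (SD, n = 6), and the lowest Benjamini-Hochberg adjusted p was 0.571. Protein-coding share differed by -0.07 ± 0.17 and lncRNA share by 0.19 ± 0.57 (SD, n = 6). A further 5 classes, microRNA precursors among them, had under 100 counts in some library and were not tested. In these bulk preparations fewer EVs of a kind and less RNA per EV cannot be told apart.

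The number of features seen did not pass the test either. After each library was thinned to 959217 counts, 15339 to 20635 features had a count in the controls (median 16255) and 15155 to 18618 at 120 mg/dL (median 16172). The number was higher with ethanol in 3 of 6 cultures, with a mean log2 ratio of -0.03 ± 0.07 (SD, n = 6; exact sign-change p = 0.375).

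A few features took much of each library. The 12 most abundant together held 30.4% to 67.1% of the counts of a library (median 46.6% of 12 libraries). These values are shares of counts and are not corrected for gene length. Whether the reads at these loci come from the transcripts they are named for was not tested. Cdk8, the kinase of the Mediator complex, held 5.92% to 11.9% of control counts (median 8.58%) and 9.46% to 18.7% at 120 mg/dL (median 11.8%). It was higher in 5 of 6 cultures, but its fitted log2 fold change of 0.89 ± 0.56 (SE) did not pass the test (edgeR adjusted p = 0.836). In the matched cells Cdk8 took a median of 1.04% and 1.42%. The lncRNA genes Gm36876 and Gm39850 had medians of 4.39% and 3.85% in controls and 5.45% and 6.10% with ethanol, and the mitochondrial rRNA mt-Rnr2 8.64% and 8.85%. Medians of AY036118, a lncRNA, were 2.00% and 1.32%, and of mt-Rnr1 1.99% and 2.02%. Rcc2, a chromatin-binding regulator of mitosis, was lower in 5 of 6 cultures by share, with a log2 fold change of -0.35 ± 0.28. Il1rapl1, a synaptic receptor of the interleukin-1 receptor family, had one of -0.04 ± 0.35, and Wtap, a subunit of the m6A RNA methyltransferase complex, one of 0.56 ± 0.44. None of the 12 had an adjusted p under 0.836.

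Gene by gene, the moderate dose left 1 DEG. Of 11880 genes tested with edgeR's quasi-likelihood test, with the culture as a block, 1 passed an adjusted p of 0.05, which is 0.00842% of them, and 744 had an unadjusted p under 0.05. The median log2 fold change was -0.01 and 5732 genes lay above 0. The standard error, derived here from the F value of the test, had a median of 0.20 on the log2 scale (quartiles 0.15 and 0.27). For 93 genes the estimated change was more than 1 in size. The plot of fold change against level shows how few genes leave the band around 0.

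**Figure D2:**
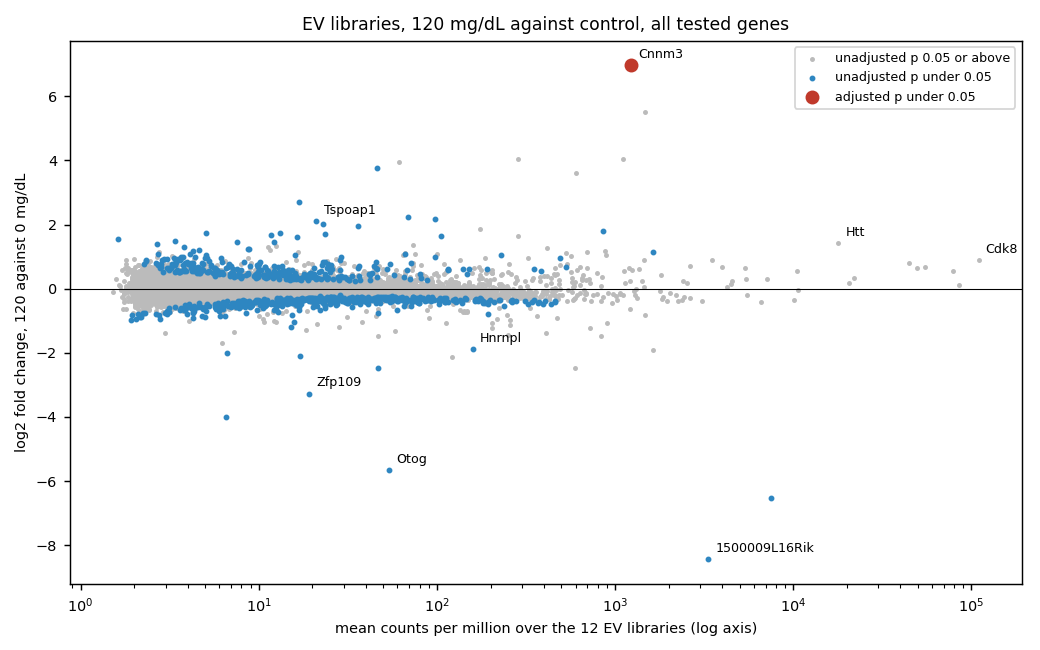
Log2 fold change in EVs at 120 mg/dL against control (y axis) by mean CPM over the 12 libraries (x axis, log scale), 1 point for each of the 11880 genes tested. Blue points have an unadjusted p under 0.05 and the red point, Cnnm3, an adjusted p of 0.049. Several of the farthest points are features that were abundant in some libraries of a group and near background in the others.

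The DEG was Cnnm3, which encodes a membrane protein of the cyclin M family linked to magnesium transport (mm39, chromosome 1, 36550884 to 36567318, plus strand). The control EV libraries of cultures 3F, 3M, 4F, 4M, 5F and 5M had 21, 129, 55, 111, 36 and 136 counts of it. The 120 mg/dL libraries had 18891, 2251, 44, 14976, 18005 and 3201 in the same order. Thus 5 cultures were far above control and 4F was not, and scaled by the trimmed mean of M values (TMM) the controls spanned 12.02 to 34.4 CPM and the treated libraries 37.7 to 4305 CPM. The groups did not overlap. The log2 fold change was 6.96 ± 1.01 (SE), with an adjusted p of 0.049 in edgeR. In 320 mg/dL EVs, which share these controls, the 6 libraries had 23 to 138 counts and the log2 fold change was 0.27 ± 0.85. In cells the change at 120 mg/dL was -0.33 ± 0.25. The difference between the EV and the cell change was 7.17 ± 0.95 (edgeR adjusted p = 0.000744).

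The call on Cnnm3 was close to the threshold. The adjusted p was 0.273 without culture 3F, 0.205 without 3M, 0.425 without 4M, 0.275 without 5F and 0.135 without 5M, and 9.26e-06 without 4F. Over the alternatives it ranged from 2.44e-78 with no filter on low counts to 0.530 with robust dispersion estimates, while the log2 fold change stayed between 5.96 and 7.35. With only the 12 libraries in the fit the edgeR adjusted p was 0.445, at a log2 fold change of 6.40. Cnnm3 passed under 7 of 18 alternatives.

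Abrupt differences of this kind were found in other features and at both doses. In 56 of the tested genes at least 1 of the 12 libraries held 100 or more counts and over 20 times the median level of the 12. Such libraries were in the control group for 39 of these genes and in the 120 mg/dL group for 34, and 32 genes had just 1 such library. The 2 libraries of culture 5M held 22 and 14 of these peaks, those of 5F 11 and 12, and the 4M control held 0. The rule leaves out features that were high in much of the 12 libraries, since these raise the median. Thus 1500009L16Rik and Htt, described next, are not among the 56.

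Otog, the gene of otogelin, a protein of the inner ear (mm39, chromosome 7), went the other way. Its control counts were 3, 2 and 5 in 3F, 3M and 4F and 243, 430 and 2523 in 4M, 5F and 5M, while the treated libraries had 1 to 11. Thus 3 controls were high and the other 3 stood at the treated level. The log2 fold change was -5.65 ± 0.93 with an edgeR adjusted p of 0.105, and its difference from the cell change, -6.33 ± 0.98, passed in edgeR (adjusted p = 0.00584). Cells held next to no Otog, with 2 to 16 counts in the control libraries and 6 to 19 at 120 mg/dL, so that cell change lies near the floor. In EVs at 320 mg/dL, against the same controls, the log2 fold change of Otog was -5.53 ± 0.98 (edgeR adjusted p = 0.048). The uncharacterised gene 1500009L16Rik had 5770, 13304, 7, 24902, 23344 and 55473 counts in the controls and 14768, 4, 1, 9, 11 and 28072 at 120 mg/dL. It was high in 5 of 6 controls and in 2 of 6 treated libraries, and its log2 fold change of -8.43 ± 2.09 did not pass (edgeR adjusted p = 0.693), while DESeq2 called it (adjusted p = 1.54e-09). Smg5, a factor of nonsense-mediated mRNA decay, had 140990, 44557 and 173302 counts in the controls of 3M, 4F and 5M, 156 to 432 in the other controls and 73 to 445 counts in the 6 treated libraries. Htt, which encodes huntingtin, had 57835 to 279955 counts in 2 controls and 4 treated libraries and 44 to 409 counts in the others (log2 fold change 1.43 ± 1.24). Gm51464 spanned 9488 to 320954 counts in controls and 18049 to 996424 with ethanol (0.82 ± 1.12). On the TMM scale 1500009L16Rik was lower with ethanol in all 6 cultures and Smg5 in 5 of 6, and by library totals both were lower in all 6. For each of the 4 genes the groups overlapped.

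**Figure D3:**
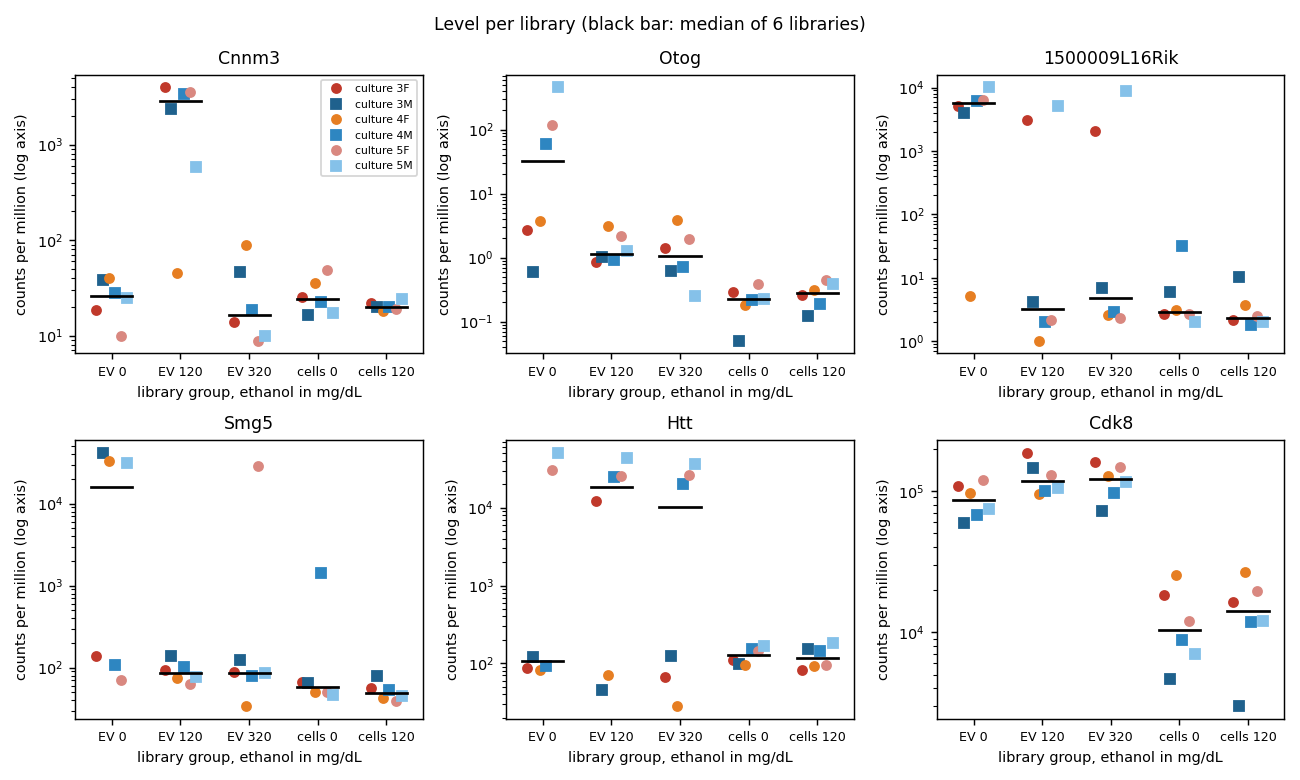
CPM of the library total (y axis, log scale) of 6 genes in EV libraries at 0, 120 and 320 mg/dL ethanol and in cell libraries at 0 and 120 mg/dL (x axis), 1 point per library, with black bars at the median of 6. For Cnnm3, 5 of 6 EV libraries at 120 mg/dL stand apart from all others, and for Otog 3 of 6 control EV libraries do.

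Direction was also read culture by culture. The 64 patterns of sign that 6 cultures can have include all higher and all lower, so some genes move the same way throughout by chance alone. If all patterns were equally likely, each would hold 1 gene in 64. Of the tested genes 168 were higher with ethanol in all 6 cultures, or 1.41%, and 252 were lower in all 6, or 2.12%. The share of higher genes lay below 1 in 64 and that of lower genes above it, and neither was tested against chance. This split rests on the scaling: with library totals in place of TMM factors, which moves the median log2 fold change of all genes to -0.26, 21 genes were higher and 811 lower in all 6. The 12 libraries did not overlap between the doses for 4 genes that were higher (0.0337%) and 3 that were lower (0.0253%). These numbers were not tested against chance either. Chosen after their values were seen, the higher ones besides Cnnm3 were Hccs, the synthase that attaches haem to cytochrome c (2.43 to 4.01 CPM in controls and 4.06 to 7.59 CPM with ethanol), Vash2, a tubulin carboxypeptidase (3.01 to 4.70 and 4.84 to 7.59 CPM), and the zinc finger gene Zfp37 (1.57 to 4.34 and 4.60 to 6.22 CPM). The lower ones were Rmnd1, Ptpn21, a tyrosine phosphatase (12.5 to 15.6 and 5.06 to 12.5 CPM), and Nans, the sialic acid synthase (9.02 to 10.2 and 3.43 to 8.92 CPM). Of the 7, Cnnm3 alone passed the adjusted threshold.

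Among genes higher in all 6 cultures, Edem3 and Reep3 had the smallest p after Cnnm3. Edem3 is a mannosidase of degradation linked to the endoplasmic reticulum (ER). It had 14.9 to 43.0 CPM in controls (median 25.7) and 27.5 to 56.3 CPM at 120 mg/dL (median 45.7). Its log2 fold change was 0.72 ± 0.15 with an adjusted p of 0.638. Reep3, which shapes ER membranes, had 1.33 to 3.34 CPM (median 2.42) and 2.97 to 9.44 CPM (median 6.19), with a log2 fold change of 1.17 ± 0.24. For both genes the groups overlapped. Sf3a2, a U2 snRNP subunit, had medians of 2.48 and 5.34 CPM (0.78 ± 0.21). Inpp5f, an inositol phosphatase of endosomes, had medians of 91.3 and 176 CPM (0.63 ± 0.16), Ajm1, an apical junction protein, 11.1 and 29.2 CPM (0.85 ± 0.21), and Fam133b 4.68 and 7.44 CPM (0.78 ± 0.19). Adgrd1, an adhesion G protein-coupled receptor, had medians of 1.97 and 3.05 CPM with 28.5 CPM in 1 treated library, and Tspoap1, a presynaptic scaffold, 6.21 and 13.5 CPM with 150 CPM in 1 treated library. The adjusted p of these 7 genes after Edem3 lay between 0.638 and 0.693. DESeq2 called Inpp5f (adjusted p = 0.0151). The cell changes of Edem3, Reep3 and Sf3a2 were -0.07, -0.15 and -0.16. Some directions rest on the scaling of few counts. The 3M control and treated libraries had 2 and 2 counts of Adgrd1. Those of 4F had 4 and 3 of Sf3a2 and 9 and 9 of Fam133b.

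Among genes lower in all 6 cultures, Rmnd1, a factor of mitochondrial translation (mm39, chromosome 10), had 6.88 to 8.61 CPM in controls and 1.27 to 5.95 CPM at 120 mg/dL, a log2 fold change of -0.84 ± 0.20. Epm2a, the glycogen phosphatase laforin, had 11.9 to 37.8 CPM (median 17.3) and 9.47 to 12.7 CPM (median 10.7), a log2 fold change of -1.04 ± 0.26. Both had an adjusted p of 0.693. Tm9sf2, a membrane protein of endosomes and the Golgi, had medians of 30.9 and 19.7 CPM (-0.59 ± 0.15), Rab11fip4, an effector of the recycling GTPase Rab11, 33.9 and 20.4 CPM (-0.50 ± 0.13), and Kifc1, a mitotic kinesin, 13.0 and 8.73 CPM (-0.49 ± 0.13). The lncRNAs Gm31740, Gm11274 and Gm52049 and the unclassified LOC118568316 were also lower in all 6. Gm31740 had 63.1 to 104 CPM and 47.1 to 71.2 CPM (-0.54 ± 0.13), Gm11274 medians of 73.3 and 51.0 CPM (-0.67 ± 0.18), Gm52049 24.5 and 18.2 CPM (-0.57 ± 0.14) and LOC118568316 10.1 and 5.86 CPM (-0.60 ± 0.15). At 320 mg/dL, against the same controls, Gm31740, Gm11274, Gm52049 and LOC118568316 had values of -0.77, -1.20, -0.93 and -0.61, Rmnd1, Tm9sf2, Rab11fip4 and Kifc1 of -0.52, -0.59, -0.36 and -0.25, and Epm2a of 0.15.

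**Figure D4:**
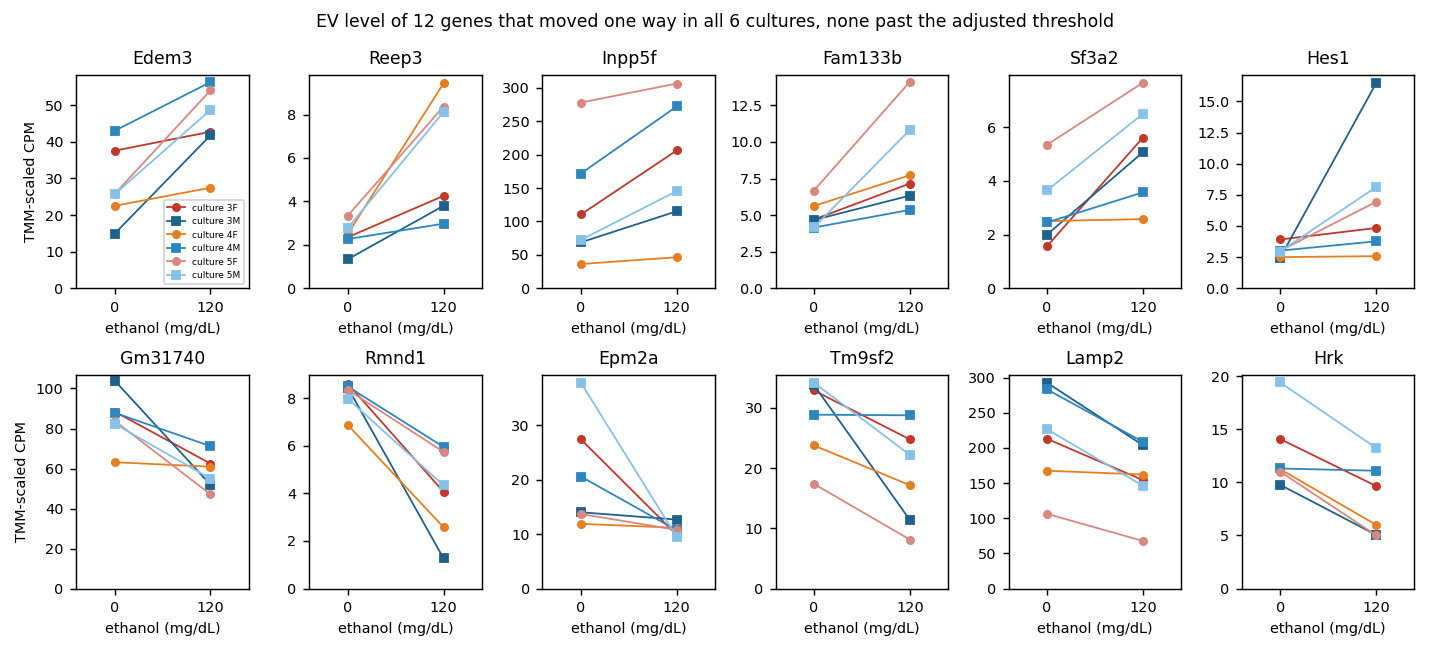
TMM-scaled CPM (y axis) of 12 genes in EVs at 0 and 120 mg/dL ethanol (x axis), with lines joining the 2 libraries of each culture. The upper row was higher with ethanol in all 6 cultures and the lower row lower in all 6. No gene of the 12 passed the adjusted threshold.

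Gene lists were read against all tested genes, of which 2.5% had an unadjusted p under 0.05 and were higher at 120 mg/dL and 3.76% had one and were lower. No member of the 23 lists passed the adjusted threshold of edgeR. The machinery of EV formation, with 34 of 36 genes tested, had a median log2 fold change of 0.01, with 1 gene higher and 1 lower at an unadjusted p under 0.05. Lamp2, a lysosomal membrane protein, had 106 to 293 CPM in controls (median 220) and 67.7 to 209 CPM at 120 mg/dL (median 158) and was lower in all 6 cultures (-0.46 ± 0.13, edgeR adjusted p = 0.693). Pld2, a phospholipase D, had medians of 3.25 and 5.79 CPM and was higher in all 6 (0.80 ± 0.24). Transcripts of the tetraspanins Cd63, Cd81 and Cd9 had medians of 12.5, 23.5 and 5.25 CPM of the library total in control EVs and 14.1, 17.4 and 2.94 CPM with ethanol. Of the 20 RNA sorting proteins, all tested, 1 was higher and 2 were lower by that criterion. Ago2, the Argonaute slicer of small RNA pathways, had medians of 357 and 307 CPM (-0.49 ± 0.16) and was lower in 5 of 6 cultures. DESeq2 called Lamp2 (adjusted p = 0.000347) and Ago2 (adjusted p = 0.0409). Retrovirus-like capsid genes, whose proteins can leave cells as particles, had 6 of 20 members tested and 0 at that level. Arc differed by 0.22 ± 0.21 and Rtl6 by -0.20 ± 0.19.

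Of the splicing factors 7 of 64, or 10.9%, had an unadjusted p under 0.05, against 6.26% of all tested genes. The highest shares of any list were 17.4% for p53 and 15.8% for lncRNAs. No test of a list as a whole was made. All 64 were tested, 6 were higher and 1 lower, and 41 lay above 0, with a median of 0.08 against -0.01 over all genes. The higher ones were Sf3a2, Srsf11, Snrnp70, Srrm2, Hnrnpa0 and Sf3b1, with log2 fold changes of 0.27 to 1.16, all at an adjusted p of 0.693 or above. Relative to all genes, the median of the list was above 0 in 5 of 6 cultures, from -0.11 in 4M to 0.43 in 5M. Hnrnpl, a splicing regulator, was the lower one, with 56.4 to 703 CPM in controls and 35.5 to 111 CPM at 120 mg/dL (-1.88 ± 0.57, edgeR adjusted p = 0.747). DESeq2 called it (adjusted p = 0.0409). At 320 mg/dL, against the same controls, its log2 fold change was 1.17 ± 0.55, and in cells at 120 mg/dL it was 0.00 ± 0.07. Proteins of mRNA export and the nuclear pore, 34 of 40 tested, had 0 higher and 1 lower and a median of 0.02. Nup133 differed by -0.35 ± 0.12 and Gle1 by -0.30 ± 0.14.

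Cell identity lists came next. Of 38 NSC and radial glia genes 34 were tested, with a median of 0.06, 2 higher and 1 lower. Hes1, an effector of Notch signalling, had 2.44 to 3.91 CPM in controls and 2.57 to 16.5 CPM at 120 mg/dL. It was higher in all 6 cultures (1.05 ± 0.32, edgeR adjusted p = 0.748). The 4F control and treated libraries had 4 and 3 counts of it, so its direction there rests on the scaling. Notch3 had medians of 98.2 and 79.9 CPM (-0.40 ± 0.14). Genes of intermediate progenitors and neurons, 20 of 36 tested, had a median of 0.13 with 0 members at an unadjusted p under 0.05. Their median relative to all genes ran from -0.18 in 4M to 0.74 in 3M, whose treated library had the fewest counts of the 12. Tubb3, a neuronal tubulin, differed by 0.55 ± 0.30 and Elavl3, a neuronal RNA-binding protein, by 0.35 ± 0.23. Glial genes, 15 of 22 tested, had a median of 0.00 and likewise 0 members at that level, with Gja1 at 0.37 ± 0.23 and Cspg4 at -0.17 ± 0.13. Of the endothelial and mural list 3 of 11 were tested, among them Flt1 (0.63 ± 0.52). No microglial, mesenchymal or blood gene passed the filter on low counts.

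Growth and stress lists had medians between -0.07 and 0.05. Cell cycle genes, 39 of 40 tested, had a median of -0.07, 1 higher and 2 lower. Bub1b, a spindle checkpoint kinase, differed by -0.29 ± 0.11 and Nusap1, a spindle protein, by -0.40 ± 0.18. Of 27 genes of p53 and apoptosis 23 were tested, 1 was higher and 3 were lower, and the median was -0.05. Among the lower ones Hrk, a BH3-only protein that promotes apoptosis, had 9.78 to 19.4 CPM in controls and 5.02 to 13.3 CPM with ethanol and was lower in all 6 cultures (-0.59 ± 0.17, edgeR adjusted p = 0.693). Enzymes of ethanol and aldehyde metabolism had 11 of 20 tested and 0 at an unadjusted p under 0.05, with the acetate-activating Acss2 at 0.42 ± 0.23 and Acss3 at 0.48 ± 0.37. The antioxidant list, 23 of 26 tested, had 1 higher and 1 lower: Nfe2l2, which encodes the regulator NRF2, at 0.65 ± 0.26 and its inhibitor Keap1 at -0.25 ± 0.11. ER stress genes, 25 of 28 tested, had 0 at that level and a median of 0.05, with Asns, the asparagine synthetase, at -0.27 ± 0.13 and Trib3 at 0.32 ± 0.16. Chaperones, 20 of 24 tested, had 0 higher and 1 lower, with Dnajb6 at -0.38 ± 0.17 and Stip1 at 0.49 ± 0.25.

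Metabolic and structural lists completed the set. Sterol synthesis, 22 of 26 tested, had 0 higher and 2 lower and a median of -0.08. These 2 were Srebf1, a transcription factor of lipid synthesis (-0.35 ± 0.13), and Scap, the escort of the sterol regulatory proteins (-0.29 ± 0.13). One-carbon and DNA methylation genes, 20 of 21 tested, also had 0 higher and 2 lower. Ahcy, which hydrolyses S-adenosylhomocysteine, had 2.43 to 4.70 CPM in controls and 0.858 to 3.09 CPM at 120 mg/dL and was lower in all 6 cultures (-0.80 ± 0.26, edgeR adjusted p = 0.769). Ribosomal protein genes, 81 of 87 tested, had a median of -0.07, with 68 below 0 and 1 at an unadjusted p under 0.05. Rpl22l1 differed by -0.35 ± 0.15 and Rpl15 by -0.21 ± 0.12. Relative to all genes this list was above 0 in 2 of 6 cultures and spanned -0.30 in 4M to 0.31 in 4F. Mitochondrial mRNAs, 7 of 13 tested, spanned -1.27 in 4M to 0.64 in 3F, with ND6 at 0.21 ± 0.22 and ND1 at -0.22 ± 0.23. Small structural RNAs, 11 of 25 tested, had a median of 0.16, with the minor spliceosome RNA Rnu12 at 0.58 ± 0.32 and the vault RNA Vaultrc5 at -0.40 ± 0.24. Of 30 lncRNAs 19 were tested, 1 was higher (Snhg14, 0.42 ± 0.19) and 2 were lower, among them Neat1, the scaffold of paraspeckles (-0.50 ± 0.22).

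**Figure D5:**
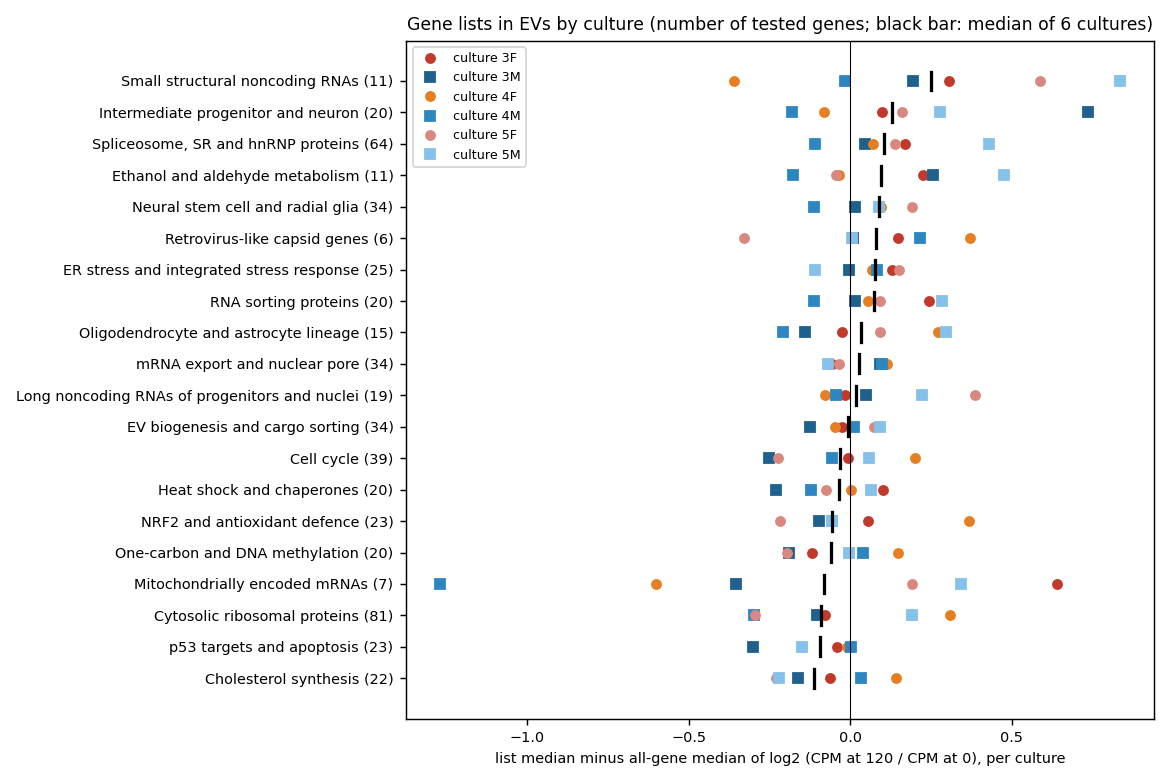
Median log2 ratio of CPM at 120 over 0 mg/dL of each gene list minus that of all tested genes (x axis), 1 point per culture, with black bars at the median of 6 cultures and the number of tested genes in parentheses. The 20 lists with 6 or more tested genes are shown. Each has cultures on both sides of 0, and values run from -1.27 for mitochondrial mRNAs in 4M to 0.84 for small structural RNAs in 5M.

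MicroRNA precursors were scarce in these libraries. Of 1228 precursors in the files 64 had a count in the 12 libraries and 5 passed the filter. Reads on a precursor gene do not tell the hairpin from the mature strands. The strands of the precursors Mirlet7i and Mir674 are shown from RefSeq (GRCm38.p6) with the seed, bases 2 to 8, in capitals, since let-7 promotes neuronal differentiation and these seeds set the targets of each strand.
mmu-let-7i-5p: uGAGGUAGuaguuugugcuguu
mmu-let-7i-3p: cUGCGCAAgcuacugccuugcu
mmu-miR-674-5p: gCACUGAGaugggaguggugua
mmu-miR-674-3p: cACAGCUCccaucucagaacaa
Mirlet7i had 2 to 15 counts in the controls and 0 to 23 at 120 mg/dL, and a log2 fold change of 0.63 ± 0.37 (edgeR adjusted p = 0.835). Mir674 had 5 to 22 counts and 0 to 22 counts, with -0.45 ± 0.34. Mir5099, Mir7652 and Mir6240 differed by -0.48 ± 0.34, -0.20 ± 0.17 and 0.48 ± 0.48. None of the 5 passed the adjusted threshold in edgeR. The change of Mirlet7i did not pass although it was larger than its error, so at these counts small changes could not be detected.

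Whether female and male cultures responded alike was tested as an interaction of dose and sex. No gene of 11880 passed (0%) in edgeR, 481 had an unadjusted p under 0.05, and the standard error of the difference had a median of 0.40 on the log2 scale. For Cnnm3 the female minus male difference was 1.34 ± 1.66. In the cell-of-origin NSCs no gene of 17792 passed at 120 mg/dL (0%), with 444 at an unadjusted p under 0.05, 2 called by DESeq2 and a median standard error of 0.13. The EV and the cell change differed for 2 of 18728 genes (0.0107%), Cnnm3 and Otog, with 781 at an unadjusted p under 0.05.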

How the data were processed

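RNA of 36 libraries was sequenced by the authors with the SEQuoia Complete Stranded kit after Ribo-Zero Plus rRNA depletion, and 12 EV libraries are the subject here. The deposited files hold raw counts per gene: the authors trimmed adapters and removed duplicates with SeqSense, trimmed with Trimmomatic, aligned to mm39 with STAR and counted with HTSeq, and tested with DESeq2 (version 2.11.40.6 in their processing notes). Whether HTSeq used strand is not given in the sources used here, so overlapping and antisense genes are uncertain. EV libraries held 959217 to 5509952 counts, which limits precision for low genes.

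Counts were tested with edgeR 4.0.16 (quasi-likelihood, TMM factors, R 4.3.3) on the 18 EV libraries of 3 doses, with the culture as a block and Benjamini-Hochberg adjustment at 0.05. Genes passed edgeR's expression filter (minimum count 10, total 15). The same fit was made for cells, for the difference between sexes and for the EV minus cell difference. Each SE was derived from the test, as the size of the log2 change over the square root of its F value. It is not a fitted standard error and can sit apart from the p. Nup210 in EVs, at -0.29 ± 0.12, had an unadjusted edgeR p of 0.157. Same-culture libraries deviated together (median correlation 0.354, over 0.1 in 6 of 6), and share their cells, so cultures are paired. The female and male cultures of a pregnancy set are separate cultures, so the 6 cultures come from 3 pregnancies. With the culture as a block, differences in level between cultures are removed. The edgeR p-values of the dose effect in EVs therefore measure the spread left within cultures, over the 18 libraries of 3 doses. Class shares and detected features were compared with an exact two-sided sign-change test on log2 ratios, for classes with at least 100 counts in every library. The edgeR fits of the dose effect and of the sex difference were tested on simulated EV counts. That simulation gave all genes the same dispersion and held no differences between cultures. It did not cover the EV minus cell fit, the sign-change test or the other tools.

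Named genes were those past the threshold, the 10 in each direction with the smallest p among genes of 1 direction in all 6 cultures, the 12 most abundant, the 2 of each list with the smallest p, those with a sex or EV minus cell difference, and Y-linked checks; some of them are not reported here. Members and the 23 lists were chosen with earlier results of these data known. Alternatives were DESeq2 1.42.0, limma-voom (limma 3.58.1), 2 other scalings, 2 other filters, the 12 libraries alone, no block, pregnancy and sex as terms, thinning and leaving out each culture. A further 2 were chosen after seeing the data: leaving out the 4 libraries of fewest counts, and robust dispersion.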

Additional observations from a re-analysis of the deposited data

Results flagged for a closer look

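Of 84 groups of 6 libraries examined for a library far from the others (by Dixon's ratio on the log2 scale), 7 had one, and chance alone gives about 1 in 20. At 120 mg/dL these were the protein-coding share of culture 5F, 47.9% of counts, Cnnm3 in 4F, 37.7 CPM, Tspoap1 in 4M, 150 CPM, and Gm36876 in 3M, 113195 CPM. Among controls they were Rmnd1 in 4F, 6.88 CPM, 1500009L16Rik in 4F, 4.38 CPM, and Gm51464 in 5F, 107180 CPM.

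The ethanol effect in EVs differed from that in cells, by the test of the difference itself, for Cnnm3, by 7.17 on the log2 scale, and for Otog, by -6.33. In cells Otog was near the floor.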

How the results depend on the processing

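The count of 1 DEG in EVs was 11 with DESeq2, which gave an adjusted p to 1055 genes and none to 10825, 0 with median-of-ratios factors, 4 with library totals, 157 with no filter on low counts, 0 with a mean of at least 10 counts, 0 with only the 12 libraries in the fit, 0 with pregnancy and sex in place of the culture and 0 after thinning. It was 1 with limma-voom, and 0 to 1 when each culture was left out, with 1 only without 4F. Of the alternatives chosen after seeing the data, leaving out the 4 shallowest libraries gave 2 (Cnnm3 and Otog) and robust dispersion 0. With no replicate block, that is without pairing by culture, it was 1. The sex difference went from 0 genes to 2 with library totals, 159 with no filter and 0 to 2 when a pregnancy set was left out. The EV minus cell difference went from 2 genes to 6 with no filter and to 1 with no replicate block by location. In cells DESeq2 gave 2 genes in place of 0. Genes of 1 direction in all 6 cultures numbered 832 with library totals (21 higher and 811 lower), against 168 higher and 252 lower. No RNA class was called under any alternative, but with a culture left out the smallest possible p is 0.0625, so those runs could call none. Without features over 1% of a library the mean log2 ratio turned from -0.15 to 0.10 for nuclear tRNA, from -0.15 to 0.10 for other noncoding RNA and from -0.17 to 0.08 for snRNA. Detected features did not pass under the alternatives run.

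Directions reversed for 7 named genes, none past the threshold. Under library totals mt-Rnr2 was -0.17, AY036118 -0.14, Arc -0.041 and ND6 -0.059. Il1rapl1 was 0.15 with no replicate block, 0.089 with pregnancy and sex and 0.0026 after thinning, and -0.34 to 0.16 with a culture left out. Rtl6 was 0.17 after thinning. AY036118 was -0.061 without the 4 shallowest libraries and -0.11 to 0.32 with a culture left out, and Gm51464 was -0.18 (without 5M) to 1.86. The cause was not tested. Depth limits what low genes and microRNA precursors can show.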
